A study of Oryza sativa with 4 samples.

Results

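The comparison set Pok seedlings against IR29 seedlings after both had been exposed to salt, at the translational level. Its members were the annotated rice transcripts with 5 FPKM or more in at least one of the 2 salt libraries. There were 11679 such transcripts at 11063 loci, which is 20.3% of the 57629 assembled transcripts that matched an annotated transcript and part of the 89715 assembled transcripts in all. The value of each member was the log2 ratio of FPKM + 1, Pok salt over IR29 salt, where FPKM is the number of sequenced fragments estimated for a transcript, scaled by its length and by the mapped fragments of the library. A transcript was called higher or lower in Pok salt when this ratio reached 1 in size, a 2-fold difference in FPKM + 1. Numbers in brackets after the levels of a transcript are this ratio, and those after the counts of a gene list are its median over the list.

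The study sequenced polyadenylated RNA from polysomal fractions of whole rice (Oryza sativa) seedlings of 2 cultivars, IR29, known as salt-sensitive, and Pokkali (Pok), a salt-tolerant landrace. Seedlings of about 24 days were given 150 mM NaCl in Yoshida medium for 24 h (IR29 salt, Pok salt) or stayed on Yoshida medium (IR29 control, Pok control). Each of the 4 groups was 1 library. The methods state, under total RNA isolation, that RNA of biological replicates was pooled in equal amounts, and do not say so separately for polysomal RNA. No spread between replicates could be measured, no test was possible, and the genotype cannot be told apart from the library. Whole seedlings hold roots and shoots, and more cells of a type cannot be told apart from more RNA per cell.

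Polysomes are mRNAs that carry several ribosomes, so the RNA of these fractions is taken as the pool under translation, the translatome. Salt draws water from plant cells and loads them with sodium. Rice responds with abscisic acid signalling, with protective hydrophilic proteins such as dehydrins and late embryogenesis abundant (LEA) proteins, with ion and water transport in the root, and with a loss of photosynthesis. Pokkali is known for keeping a low sodium-to-potassium ratio in the shoot, and a quantitative trait locus for this, Saltol, was mapped to chromosome 1.

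In Pok salt, 928 transcripts were higher (7.95% of the members) and 676 were lower (5.79%), 13.7% in both directions. At a 4-fold limit the counts were 253 and 273. The median log2 ratio of all members was 0.10, and 90% of them lay between -1.1 and 1.27. When Pok salt was scaled so that transcripts at 5 FPKM or more in both salt libraries had a median ratio of 1 (centring), 793 were higher (6.79%) and 766 lower (6.56%), so the excess of higher transcripts, 57.9% of those called, was 50.9% after centring. Scaling by the upper quartile, which shifted all ratios by -0.11, gave 775 higher and 776 lower transcripts (6.64% each). A plain 2-fold FPKM ratio with no pseudocount gave 1153 higher (9.87%) and 790 lower (6.76%). Of the members, 9218 reached 5 FPKM in both salt libraries, 1377 only in Pok salt and 1084 only in IR29 salt. The share called was 15.1% among transcripts whose higher salt value was 5 to 10 FPKM, 11.3% at 10 to 20 FPKM, 12.6% at 20 to 50 FPKM, 17.7% at 50 to 200 FPKM and 43.5% among the 124 transcripts at 200 FPKM or more. At the limit on level, the 559 members with a higher value of 5 to 5.5 FPKM had a median of 0.10 and 16.8% past the size limit, and the 549 transcripts just outside, at 4.5 to 5 FPKM, had a median of 0.09 and 18%. At the limit on size, 241 members had a ratio of 1 to 1.1 in size and 322 had 0.9 to 1.

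**Figure D1:**
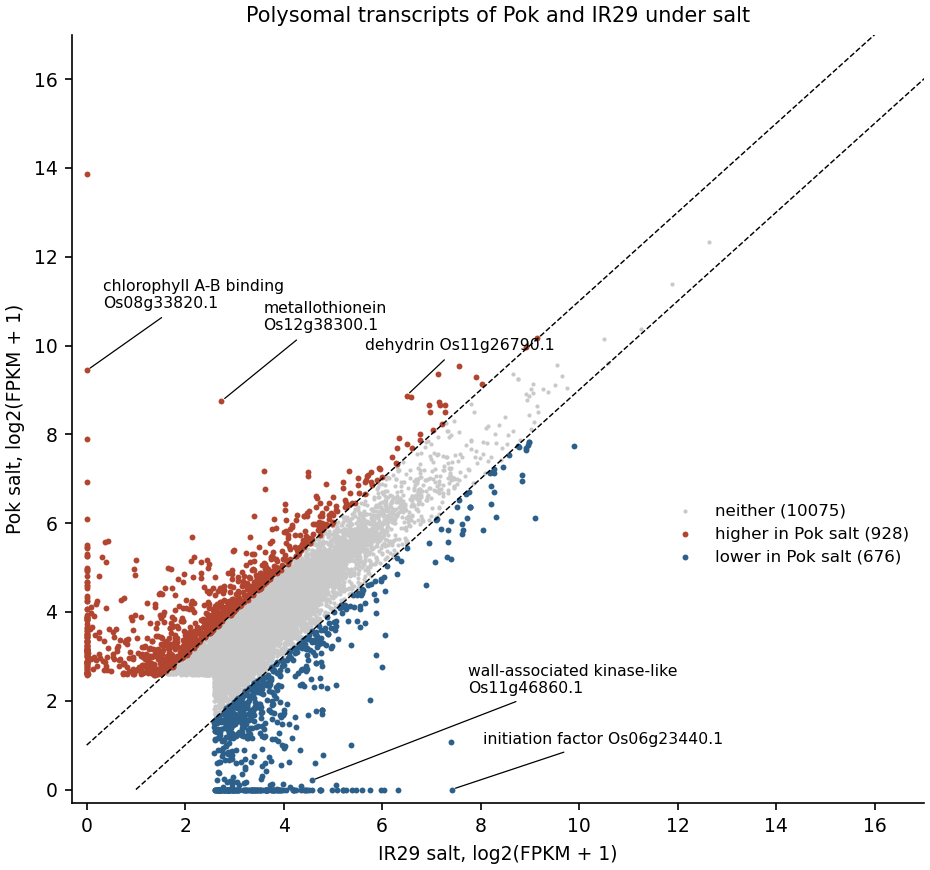
Polysomal level of the 11679 members in IR29 salt (horizontal) and Pok salt (vertical), both as log2(FPKM + 1), 1 library each. Dashed lines mark a 2-fold difference in FPKM + 1. Red points are the 928 transcripts higher in Pok salt and blue points the 676 lower ones. Points at 0 on the horizontal scale are listed at 0 in IR29 salt, and points at 0 on the vertical scale in Pok salt.

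The members were described by 68 lists of genes made from the annotation words or locus names, which held 20.4% of them. Of these lists, 40 had a median above that of all members. Members that reached 5 FPKM only in Pok salt or only in IR29 salt entered a list through the library where they were higher, which adds to the calls. The lists with the highest medians were dehydrins, root-expressed genes, LEA proteins and chlorophyll A-B binding proteins, and the lists with the lowest medians were jacalin-like lectins, thionins, and the DUF26 kinases with the cysteine-rich repeat secretory proteins.

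**Figure D2:**
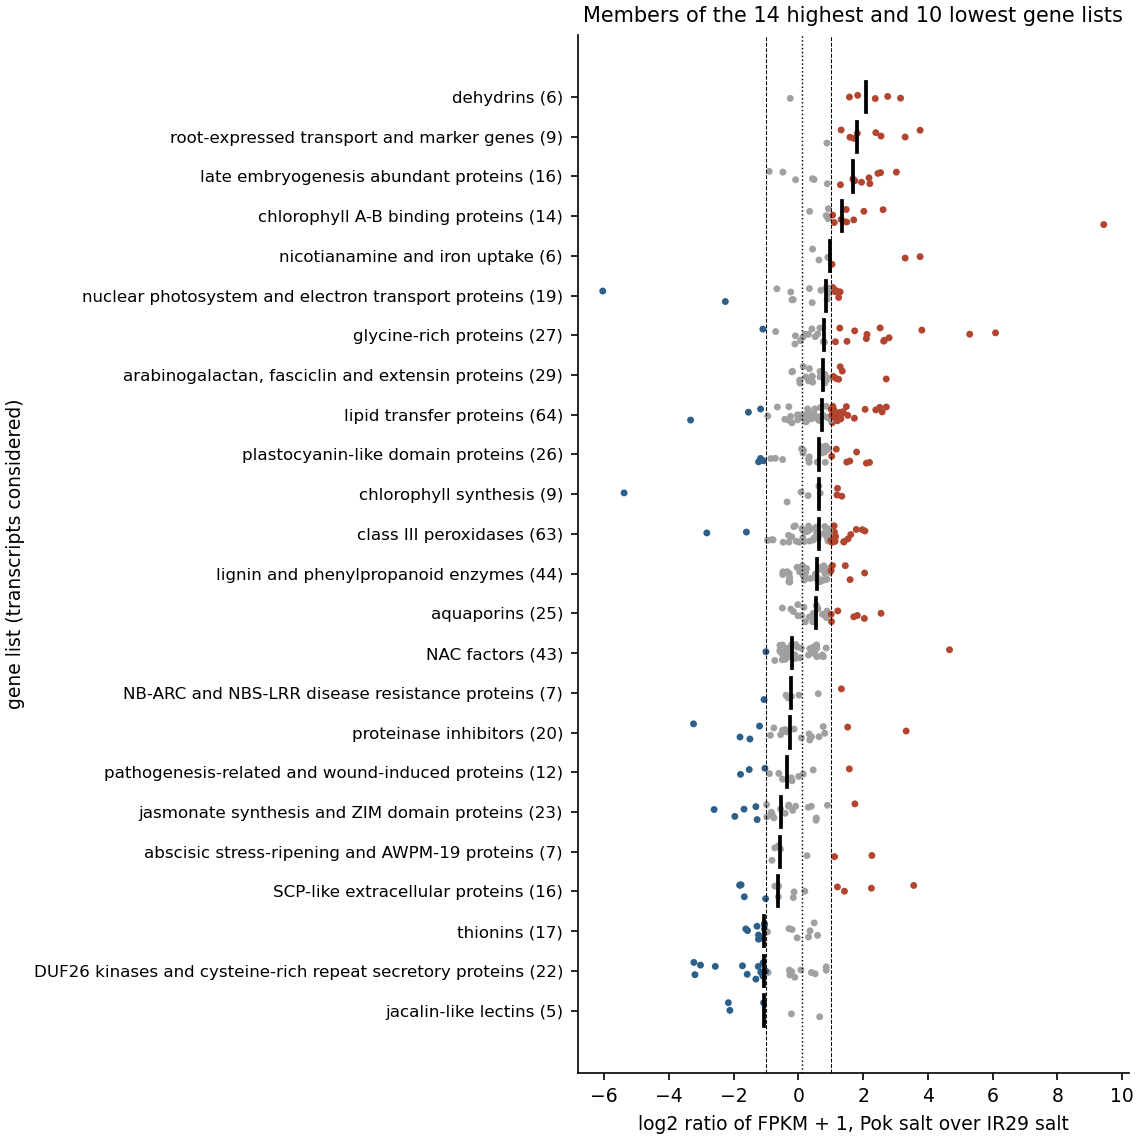
Log2 ratio of FPKM + 1, Pok salt over IR29 salt (horizontal), of each member of the 14 highest and 10 lowest gene lists by median, among lists with 5 or more members (number in brackets). Each point is a transcript, red at 1 or more, blue at -1 or less; black bars are list medians, the dotted line is the median of all members, 0.10. The dehydrin bar lies at 2.1 and the jacalin-like lectin bar at -1.08.

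Most protective proteins of drying tissue were higher in Pok salt. Dehydrins are hydrophilic proteins that accumulate under water deficit, and 5 of 6 were higher and none lower, with a median of 2.1 (2.01 after centring). Os11g26790.1 had the highest level in Pok salt, with 3.73 FPKM in IR29 control and 89.3 after salt, against 6.31 in Pok control and 467 after salt (2.38). Os11g26750.1, at the same assembled locus (chr11:14856502-14880171 in the MSU v6.1 genome), had 11.3 FPKM in IR29 salt and 109 in Pok salt, against 0.172 and 0.758 in the respective controls (3.16). Os11g26570.1, also on chromosome 11, had 9.5 FPKM in IR29 salt and 70.1 in Pok salt, against 0.69 and 0.785 in the respective controls (2.76). All 3 dehydrins were low in both control libraries, were above control in both salt libraries, and were highest in Pok salt. A further higher member, Os11g26760.1 (1.83), lay at the same assembled locus as Os11g26790.1 and Os11g26750.1. Reads of similar neighbours can be shared out among them, so these calls may not be independent. The sixth member, Os02g44870.1 on chromosome 2, had 22.3 FPKM in IR29 control and 165 after salt, against 38.1 in Pok control and 138 after salt (-0.25) and was not called. Of 16 LEA proteins, which protect membranes and proteins in seeds and drying cells, 10 were higher and none lower, with a median of 1.69 (1.6 centred). Some of the 10, such as Os04g52110.1, Os06g02040.1 and Os06g21910.1, reached 5 FPKM only in Pok salt. These were members only through the library where they were higher, so the count and the median partly follow from the limit on level. The group 3 LEA transcript Os05g46480.2 had 4.5 FPKM in IR29 control and 140.5 after salt, against 5.65 in Pok control and 653 after salt (2.21), and Os04g52110.1 had 3.34 FPKM in IR29 salt and 34.4 in Pok salt, against 0.0769 and 0.324 in the respective controls (3.03). A small hydrophilic plant seed protein, Os05g28210.1, was listed at 0 in IR29 control and had 0.985 FPKM after salt, against 0.0511 in Pok control and 27.6 after salt (3.85). In the control pair, only 7 LEA transcripts reached 5 FPKM and none was called, with a median of 0.029 (-0.29 centred).

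Other genes of the abscisic acid response did not follow as a group. The membrane protein of the AWPM-19 family Os05g31670.1, a family first described in wheat plasma membranes under abscisic acid, had 0.786 FPKM in IR29 control and 15.2 after salt, against 1.02 in Pok control and 77.3 after salt (2.27). The abscisic stress-ripening proteins Os01g72900.1 and Os01g72910.1 had lower values in Pok salt, 13.5 FPKM against 21.3 in IR29 salt for the former and 6.14 against 11.6 for the latter, neither past the size limit (-0.62 and -0.82). Of 45 protein phosphatases 2C, 2 were higher (4.44%, against 7.95% of all members) and 1 lower (2.22%, against 5.79%), with a median of -0.045. This family includes the negative regulators of abscisic acid signalling. Os01g46760.1 of this family had 4.51 FPKM in IR29 salt and 13.4 in Pok salt, against 0.846 and 1.91 in the respective controls (1.38). Of the 4 members for abscisic acid synthesis and breakdown, 1 was higher and none lower, and the median was -0.44. The higher one, the zeaxanthin epoxidase Os04g37619.1, which acts in the carotenoid branch that leads to abscisic acid, had 15.5 FPKM in IR29 salt and 35 in Pok salt, against 12.3 and 24.8 in the respective controls (1.13).

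Many transcripts of light harvesting and electron transport were higher in Pok salt. Chlorophyll A-B binding proteins, the light-harvesting antenna, had 10 of 14 higher, none lower, all 14 above 0 on the log2 scale and a median of 1.35 (1.26 centred). Of the 10, 2 were listed at 0 in IR29 salt. Os01g52240.1 had 781 FPKM in IR29 control and 143 after salt, against 809 in Pok control and 404 after salt (1.49). Os06g21590.1, chosen after its values were seen, had 392 FPKM in IR29 control and 155 after salt, against 629 in Pok control and 407 after salt (1.38). Both transcripts were lower in the salt library than in the control library of the same cultivar, and IR29 salt was the lowest of the 4 libraries. The Rubisco small subunit Os12g17600.2, part of the enzyme that fixes CO2, had 2075 FPKM in IR29 control and 189 after salt, against 1759 in Pok control and 739 after salt (1.96), with IR29 salt again the lowest. It was the only one called of 14 Rubisco small subunit and Calvin cycle transcripts, 7.14% against 7.95% of all members, and the median of these was 0.35. Of 19 nuclear-encoded photosystem and electron transport proteins, 6 were higher and 2 lower, with a median of 0.86 (0.77 centred). Plastocyanin (Os06g01210.1), the soluble copper carrier between cytochrome b6f and photosystem I, had 510.3 FPKM in IR29 control and 107 after salt, against 336 in Pok control and 256 after salt (1.24). The photosystem I reaction centre subunit Os03g56670.1 had 179 FPKM in Pok salt and 72.5 in IR29 salt, and 237 and 179 in the respective controls (1.29). In chlorophyll synthesis, 3 of 9 were higher and 1 was lower; protochlorophyllide reductase A (Os04g58200.1), which makes chlorophyllide in the light, had 23.7 FPKM in Pok salt and 9.7 in IR29 salt, and 33.1 and 44.2 in the respective controls (1.21). In the control pair the antenna list had 2 of 14 higher in Pok and a median of 0.31 (-0.0068 centred). The median of all transcripts considered in that pair was 0.32.

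**Figure D3:**
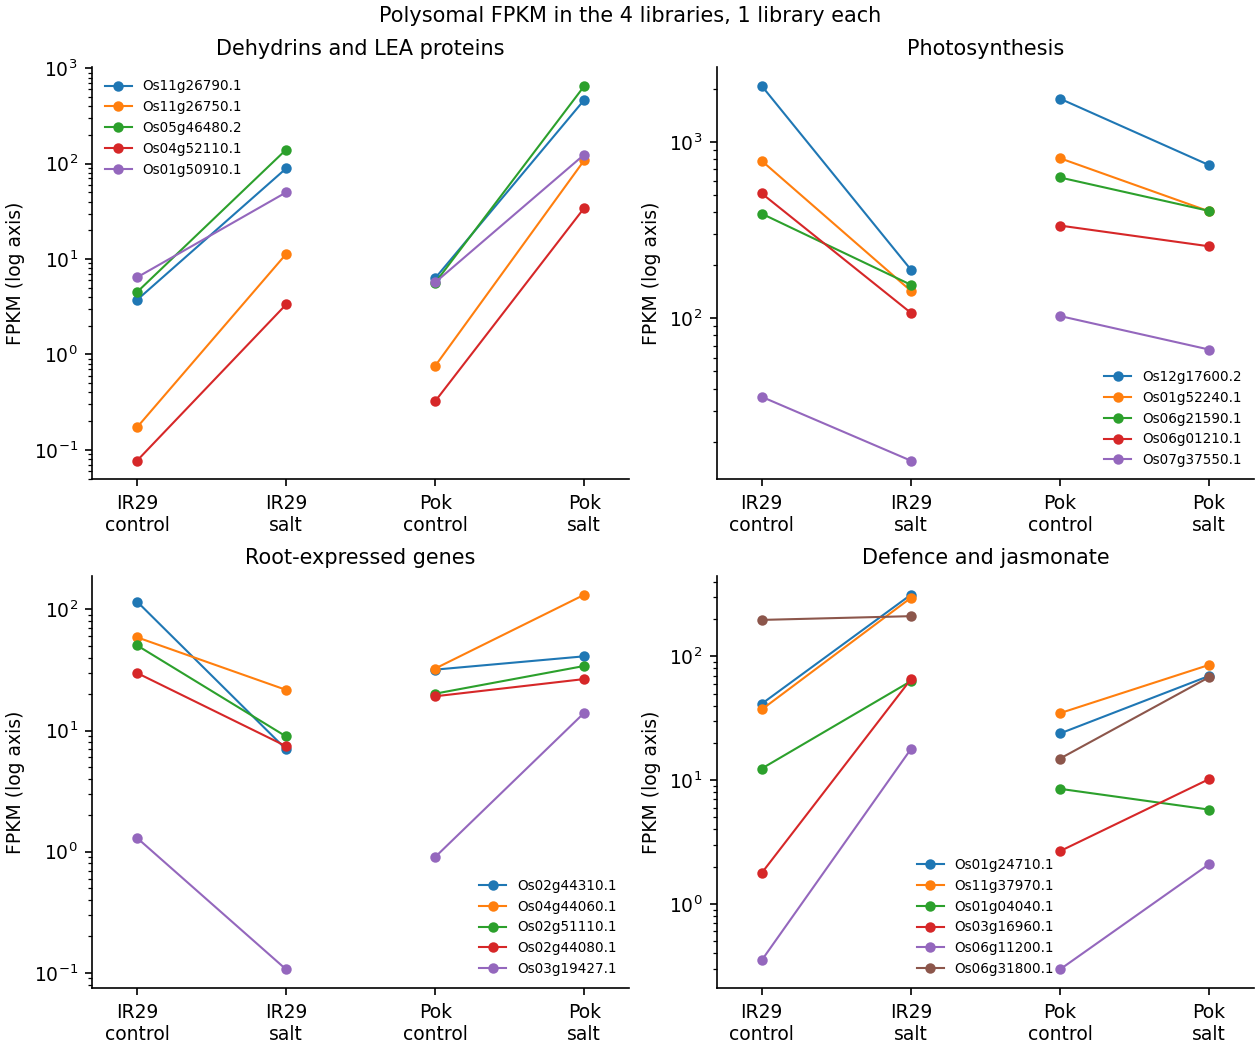
FPKM on a log axis (vertical) of named transcripts in the 4 libraries (horizontal), 1 library each; lines join the control and salt library of a cultivar. Dehydrin and LEA transcripts were highest in Pok salt, the photosynthesis transcripts shown were lowest in IR29 salt, and the jacalin-like lectin Os01g24710.1 reached 315 FPKM in IR29 salt and 69.5 in Pok salt.

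The list of genes known to be expressed mainly in rice roots had medians of opposite sign in the salt pair and the control pair. Of 9 members of the list of root-expressed genes, 8 were higher in Pok salt and none lower, with a median of 1.82 (1.73 centred), whereas in the control pair 1 of 10 was higher and 7 were lower in Pok, with a median of -1.5. The members that reached 5 FPKM were not the same in the pairs. Of the 8, the nicotianamine synthases Os03g19420.2 and Os03g19427.1 reached 5 FPKM only in Pok salt. Only Os02g40730.1, Os02g44310.1, Os02g51110.1 and Os03g01700.1 were called in opposite directions. The aquaporin Os06g22960.1 was above 0 in both (0.88 under salt, 1.67 in control). Summed over the list, the level was 358 FPKM in IR29 control and 126 after salt, against 271 in Pok control and 429 after salt. The antenna sums include Os08g33820.1, listed at 0 in both IR29 libraries and at 693 FPKM in Pok salt. The leaf lists, antenna proteins and Rubisco small subunits, summed to 2590 FPKM in IR29 control and 913 after salt, against 4227 in Pok control and 2862 after salt for the former and to 2275 FPKM in IR29 control and 267 after salt, against 1876 in Pok control and 854 after salt for the latter. Both root-expressed and leaf-expressed sums were thus lowest in IR29 salt. The share of root tissue in each library, and its part in the differences below, was not tested.

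The lipid transfer protein LTPL112 (Os02g44310.1), the root-specific RCc3 of rice, had 116 FPKM in IR29 control and 6.99 after salt, against 31.8 in Pok control and 41 after salt (2.39 under salt, -1.83 in control). The silicon channel of the root, the aquaporin Os02g51110.1, had 50.4 FPKM in IR29 control and 8.93 after salt, against 20.2 in Pok control and 34.1 after salt (1.82 and -1.28). In IR29 both were lower in the salt library than in the control library, and in Pok neither was. The plasma membrane aquaporin Os04g44060.1 had 21.7 FPKM in IR29 salt and 132 in Pok salt, against 58.8 and 32.5 in the respective controls (2.55). Of 25 aquaporins, the channels for water and small solutes, 7 were higher in Pok salt and none lower, with a median of 0.56 (0.47 centred). The ammonium transporter Os02g40730.1 had 10.1 FPKM in IR29 control and 6.85 after salt, against 2.37 in Pok control and 18.6 after salt (1.32 and -1.72), and the nitrate-assimilating ferredoxin-nitrite reductase Os02g52730.1 had 9.01 FPKM in IR29 salt and 26.1 in Pok salt, against 25.8 and 35.9 in the respective controls (1.44). Of the 19 members for ammonium, nitrate and phosphate transport and assimilation, 6 were higher and none lower. The metal transporter Os02g03900.1 of the Nramp family had 21.1 FPKM in IR29 control and 5.38 after salt, against 5.64 in Pok control and 21.3 after salt (1.81 and -1.73).

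Iron-related transcripts included a pair of nicotianamine synthases with ratios above 3. Nicotianamine synthases make the metal chelator nicotianamine, the precursor of the phytosiderophores with which grasses take up iron. Os03g19427.1 had 1.3 FPKM in IR29 control and 0.107 after salt, against 0.905 in Pok control and 14 after salt (3.76), and its neighbour Os03g19420.2 had 0.185 FPKM in IR29 salt and 10.7 in Pok salt, against 0.825 and 0.563 in the respective controls (3.3). Both were at most 1.3 FPKM in the other 3 libraries. The iron transporter Os03g46470.1 stayed under 1 FPKM in all 4 libraries, with 0.650 in Pok salt as its highest.

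Lists of secreted and cell wall proteins differed in direction. SCP-like extracellular proteins, a family of secreted cysteine-rich proteins, had 4 of 16 higher (25%) and 5 lower (31.2%), with a median of -0.62. Cupin domain proteins had 3 of 29 higher and 3 lower (10.3% each), with a median of 0.15. Over all members the shares were 7.95% higher and 5.79% lower. Of the lower SCP-like proteins, Os07g03288.1 and Os07g03377.1 had the same FPKM in every library (-1.81 each), so their calls are not independent. Lipid transfer proteins, small secreted lipid carriers, had 27 of 64 higher and 3 lower (0.72; 0.63 centred), against 7 higher and 17 lower of 65 in the control pair. LTPL121 (Os04g46820.1) had 33.9 FPKM in IR29 control and 0.15 after salt, against 5.22 in Pok control and 5.92 after salt (2.59), and LTPL120 (Os04g46810.1), beside it on chromosome 4, had 32.1 FPKM in IR29 control and 0.534 after salt, against 4.65 in Pok control and 7.76 after salt (2.51). For this pair of genes IR29 control was the highest library and IR29 salt the lowest. Glycine-rich proteins, which reinforce cell walls, had 13 of 27 higher and 1 lower (0.81; 0.72 centred); of the 13, 3 were listed at 0 in IR29 salt. Another 9 were glycine-rich cell wall proteins in a cluster on chromosome 10, such as Os10g31660.1 (chr10:16521056-16521876) with 113 FPKM in IR29 control and 21.6 after salt, against 70.5 in Pok control and 142 after salt (2.66) and Os10g31690.1 with 37.5 FPKM in IR29 control and 3.99 after salt, against 11.9 in Pok control and 33.8 after salt (2.8). Reads of such similar neighbours can be shared out among them, so the single values are uncertain. Class III peroxidases, the secreted haem peroxidases of wall crosslinking, had 17 of 63 higher and 2 lower (0.62; 0.54 centred), against 1 higher and 19 lower of 65 in the control pair. Os07g44550.1 had 1.27 FPKM in IR29 salt and 8.46 in Pok salt, against 4.97 and 1.52 in the respective controls (2.06), and on the other side Os12g02060.1 had 57.3 FPKM in IR29 salt and 7.2 in Pok salt, against 2.3 and 1.15 in the respective controls (-2.83). Of 28 expansins, which loosen walls, 6 were higher and 3 lower. The expansin Os05g19570.1 had 4.23 FPKM in IR29 salt and 16.8 in Pok salt, against 5.95 and 2.91 in the respective controls (1.76), whereas the beta-expansin Os09g29710.1 had 118 FPKM in IR29 salt and 23.3 in Pok salt, against 20.8 and 19.1 in the respective controls (-2.29). Expansins therefore held large differences in both directions. Of 44 lignin and phenylpropanoid enzymes, 5 were higher (11.4%, against 7.95% of all members) and none lower, with a median of 0.58.

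The largest ratio among specifically annotated transcripts above 0 in both salt libraries was that of a metallothionein, a small cysteine-rich protein that binds metals. Os12g38300.1 (chr12:23349444-23482544) had 6.27 FPKM in IR29 control and 5.67 after salt, against 0.69 in Pok control and 429 after salt (6.01). It was at 429 FPKM in 1 library and under 7 in the other 3. Another metallothionein of the same assembled locus, Os12g38051.1, had 112 FPKM in IR29 control and 44.9 after salt, against 12.4 in Pok control and 128 after salt (1.49), and the split of reads between such similar transcripts is uncertain. The 9 metallothioneins had 3 higher and 2 lower and a median of -0.087; in the control pair none was higher and 7 were lower in Pok, with a median of -1.72. Os11g47809.1, lower in Pok salt, had 306 FPKM in IR29 salt and 140.0 in Pok salt, against 188 and 56.3 in the respective controls (-1.12). Summed over the list, metallothioneins were 1723 FPKM in IR29 control and 1742 after salt, against 628 in Pok control and 1677 after salt, so Pok control stood below the other 3 libraries.

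The other transcripts with the largest ratios were of several kinds. A matrix attachment region binding protein, Os12g20410.1, was listed at 0 in IR29 control and had 0.192 FPKM after salt, against 26.4 in Pok control and 27.2 after salt (4.57). The stomatin-like protein Os08g15600.1 had 0.0481 FPKM in IR29 control and 0.0619 after salt, against 6.79 in Pok control and 14.7 after salt (3.88). Both were near 0 in IR29 with or without salt. Aspartic proteinases of the nepenthesin type, secreted proteases, included Os10g39300.1 with 1.2 FPKM in IR29 control and 0.349 after salt, against 5.77 in Pok control and 47.3 after salt (5.16) and its neighbour Os10g39260.1 with 0.239 FPKM in IR29 salt and 36.8 in Pok salt, against 0.844 and 3.7 in the respective controls (4.93). L-ascorbate oxidase (Os06g37150.1), which oxidises ascorbate in the apoplast, had 0.165 FPKM in IR29 control and 0.309 after salt, against 9.75 in Pok control and 33.8 after salt (4.73). All 3 were highest in Pok salt; Os10g39300.1 and the oxidase were also called higher in the control pair, where Os10g39260.1 did not reach 5 FPKM. Of the iron/ascorbate-dependent oxidoreductases, Os06g08041.1 had 1.01 FPKM in IR29 salt and 34.8 in Pok salt, against 1.37 and 6.43 in the respective controls (4.16) and Os06g07941.1 had 0.934 FPKM in IR29 salt and 30.2 in Pok salt, against 1.1 and 4.8 in the respective controls (4.01). The universal stress protein Os12g36640.2 had 14.9 FPKM in IR29 control and 11.2 after salt, against 85.9 in Pok control and 144 after salt (3.58). The cysteine proteinase inhibitor Os09g08100.1 had 2.15 FPKM in IR29 salt and 30.8 in Pok salt, against 0.651 and 2.09 in the respective controls (3.33). Among 42 glutathione S-transferases, which conjugate toxic compounds to glutathione, 6 were higher (14.3%, against 7.95% of all members) and 3 lower (7.14%, against 5.79%). Os01g72140.1 had 4.46 FPKM in IR29 salt and 21 in Pok salt, against 7.02 and 7.39 in the respective controls (2.01). Os07g05800.1 had 10.8 FPKM in IR29 salt and 0.432 in Pok salt, against 3.01 and 1.39 in the respective controls (-3.04). Of 15 catalases, ascorbate peroxidases and superoxide dismutases, none was higher and 1 was lower (6.67%, against 5.79% of all members). The lower one was the thylakoid ascorbate peroxidase OsAPx8 (Os02g34810.1, listed at 0 in Pok salt and 20.4 FPKM in IR29 salt). Copper/zinc superoxide dismutase (Os07g46990.2) had 54.7 FPKM in IR29 control and 13.8 after salt, against 3.84 in Pok control and 10.5 after salt and a ratio of -0.36 under salt, which was not past the limit.

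Several groups of defence-related transcripts held mostly lower calls in Pok salt. Jacalin-like lectins, carbohydrate-binding proteins that include salt- and jasmonate-inducible members in rice, had 3 of 5 lower and none higher (-1.08; -1.15 centred). Os01g24710.1 had 41.5 FPKM in IR29 control and 315 after salt, against 23.8 in Pok control and 69.5 after salt (-2.16), and Os01g25280.1 had 40.2 FPKM in IR29 salt and 8.5 in Pok salt, against 4.22 and 3.67 in the respective controls (-2.12). Both were above control in both salt libraries, with IR29 salt the highest. Of 22 DUF26 kinases and cysteine-rich repeat secretory proteins, a plant-specific class of receptor kinases and their secreted relatives, 12 were lower (3 of them listed at 0 in Pok salt) and none higher, with a median of -1.05 (-1.12 centred), which was -0.26 over its 11 members at 10 FPKM or more. Os03g16960.1 had 1.78 FPKM in IR29 control and 65.3 after salt, against 2.67 in Pok control and 10.2 after salt (-2.57). The wound-induced protein WIP5 (Os11g37970.1) had 37.3 FPKM in IR29 control and 297 after salt, against 34.8 in Pok control and 85.4 after salt (-1.79). Of the Bowman-Birk trypsin inhibitors, BBTI11 (Os01g04040.1) had 12.4 FPKM in IR29 control and 63.1 after salt, against 8.51 in Pok control and 5.78 after salt (-3.24) and BBTI12 (Os01g04050.1) had 199 FPKM in IR29 salt and 56.2 in Pok salt, against 41.6 and 39.5 in the respective controls (-1.8). BBTI11 was thus lower in the salt than in the control library of Pok and higher in that of IR29. Proteinase inhibitors as a list had 4 of 20 lower and 2 higher (-0.25). Chitinases and family 17 glucanases, which degrade fungal walls, had 6 of 34 lower and 1 higher; the glucanase Os01g71340.1 had 161 FPKM in IR29 salt and 46.8 in Pok salt, against 35.3 and 17.3 in the respective controls (-1.76).

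The lower transcripts also included members of the list for jasmonate synthesis. Among the 23 members for jasmonate synthesis and ZIM domain proteins, the repressors of jasmonate signalling, 5 were lower and 1 higher (-0.55; -0.63 centred). The lower ones were 4 transcripts annotated as 12-oxophytodienoate reductase and a chloroplast lipoxygenase, and none was a ZIM domain protein. The list was made from annotation words, and which of these reductases act in jasmonate synthesis was not examined. Os06g11200.1 had 0.351 FPKM in IR29 control and 17.8 after salt, against 0.295 in Pok control and 2.09 after salt (-2.6) and Os06g11290.1 had 25.9 FPKM in IR29 salt and 7.39 in Pok salt, against 3.31 and 1.45 in the respective controls (-1.68). The higher one was the lipoxygenase Os02g10120.1, with 1.62 FPKM in IR29 salt and 7.79 in Pok salt, against 4.18 and 3.28 in the respective controls (1.75).

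Thionins, small antimicrobial peptides, held lower calls and no higher ones in both pairs. Under salt 9 of 17 were lower and none higher (-1.05; -1.14 centred), and in the control pair 11 of 13 were lower, with a median of -3.81. THION2 (Os06g31800.1, chr6:18465977-18467120) had 197 FPKM in IR29 control and 212 after salt, against 14.9 in Pok control and 67.9 after salt (-1.63 under salt, -3.64 in control). THION3 (Os06g31890.1) had 554 FPKM in IR29 control and 484 after salt, against 34.4 in Pok control and 199 after salt (-1.28 and -3.97). In Pok the salt library was above the control library, and in IR29 the libraries were close. The thionin genes of chromosome 6 are similar to each other, and reads shared among them leave single values uncertain.

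Transcripts with the widest differences towards IR29, among those above 0 in both salt libraries, included the wall-associated receptor kinase-like Os11g46860.1, of a family that links the wall to signalling, with 25.6 FPKM in IR29 control and 22.7 after salt, against 0.57 in Pok control and 0.153 after salt (-4.36), and the kinase Os11g46850.1 beside it, with 14.3 FPKM in IR29 salt and 0.477 in Pok salt, against 2.34 and 0.308 in the respective controls (-3.38). The WRKY transcription factor Os11g02520.1 had 12.5 FPKM in IR29 control and 19.2 after salt, against 1.02 in Pok control and 0.851 after salt (-3.45), and the rapid alkalinization factor RALFL37 (Os04g31410.1), a peptide hormone, had 14.9 FPKM in IR29 control and 8.37 after salt, against 0.32 in Pok control and 0.128 after salt (-3.05). In both Pok libraries all 4 were at most 1.02 FPKM. The cytochrome P450 Os06g37224.1 had 15.2 FPKM in IR29 salt and 0.975 in Pok salt, against 1.16 and 0.557 in the respective controls (-3.04), and the receptor-like kinase Os05g16824.1 had 15.1 FPKM in IR29 salt and 0.904 in Pok salt, against 0.453 and 0.657 in the respective controls (-3.08). For these last 2 transcripts only IR29 salt was high. A histone domain protein, Os04g49420.1, had 29.7 FPKM in IR29 control and 12.5 after salt, against 29.6 in Pok control and 0.568 after salt (-3.1), and Os08g44450.1, of the L1P family of ribosomal proteins, had 3.15 FPKM in IR29 control and 10.9 after salt, against 6.77 in Pok control and 0.239 after salt (-3.26). For both, Pok salt was the lowest library.

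Transcription factor families held few calls, with bZIP factors the highest in share. NAC factors had 1 of 43 higher and 1 lower (-0.21), WRKY factors 1 of 35 higher and 3 lower (-0.18), AP2 and ethylene-responsive factors 3 of 48 higher and 2 lower (0.14) and MYB factors 5 of 97 higher and 4 lower (0.093). Helix-loop-helix factors had 4 of 45 higher and none lower, C2H2 zinc finger proteins 3 of 59 higher and none lower, and homeobox factors 1 of 41 higher and 1 lower. The shares called in these 7 families are below the 13.7% of all members, whereas bZIP factors had 4 of 32 higher (12.5%) and 2 lower (6.25%), with a median of 0.24. Among the bZIP calls, Os03g20310.4, higher (1.16), and Os03g20310.2, lower (-1.06), were isoforms of the same locus. The summed FPKM of that locus had a ratio of -0.35, which is not past the limit. OsWRKY71 (Os02g08440.4) was lower, with 24.5 FPKM in IR29 salt and 8.29 in Pok salt, against 7.25 and 7.57 in the respective controls (-1.46). In the translation machinery, 3 of 114 cytosolic ribosomal proteins were higher (2.63%) and 9 lower (7.89%), with a median of -0.043. Of 67 translation factors, 1 was higher (1.49%) and 5 lower (7.46%), with a median of -0.091. Over all members the shares were 7.95% higher and 5.79% lower. Of the 9 lower ribosomal proteins, 6 were copies of 60S ribosomal protein L44 on chromosome 7, such as Os07g33979.1 with 599 FPKM in IR29 control and 457 after salt, against 283 in Pok control and 135 after salt (-1.75). Reads of such similar copies can be shared out among them, so their values are not independent. Translation initiation factor SUI1 (Os07g34589.3), which acts in start codon selection, had 32.6 FPKM in IR29 control and 195 after salt, against 49.6 in Pok control and 62.2 after salt (-1.63).

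Sodium and potassium transporters were seldom called, with none of 21 higher, 1 lower (4.76%, against 5.79% of all members) and a median of 0.025. The sodium transporter Os01g20160.1, the HKT gene at Saltol that retrieves sodium from the xylem, had 1.2 FPKM in IR29 control and 0.395 after salt, against 0.67 in Pok control and 4.07 after salt and was under the 5 FPKM limit in every library. Its highest value was in Pok salt, with a ratio of 1.86. Another HKT transcript, Os04g51820.3, had 6.73 FPKM in IR29 salt and 7.44 in Pok salt, against 1.81 and 2.48 in the respective controls (0.13), and the potassium channel AKT1 (Os01g45990.1) had 4.38 FPKM in IR29 salt and 3.32 in Pok salt, against 3.59 and 2.45 in the respective controls (-0.32). The cation:proton antiporter Os07g47100.1 had 12.3 FPKM in IR29 salt and 16.8 in Pok salt, against 6.93 and 14.6 in the respective controls (0.42). In the stretch of chromosome 1 around Saltol, 12 of 94 members were higher (12.8%, against 7.95% of all members). There were 5 lower (5.32%, against 5.79%), and the median was 0.22. There the mitochondrial import protein Tim17 (Os01g19770.1) had 0.181 FPKM in IR29 control and 0.698 after salt, against 0.0873 in Pok control and 18.9 after salt (3.55), and the 2 jacalin-like lectins above were among the lower ones.

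By chromosome, the share of members higher in Pok salt ran from 5.06% on chromosome 9 to 12.4% on chromosome 10, and the share lower from 4.29% on chromosome 2 to 10.7% on chromosome 11. Chromosome 11 stood high in both directions, with 11.7% of 532 members higher, and its median of 0.04 was the lowest of the 12.

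**Figure D4:**
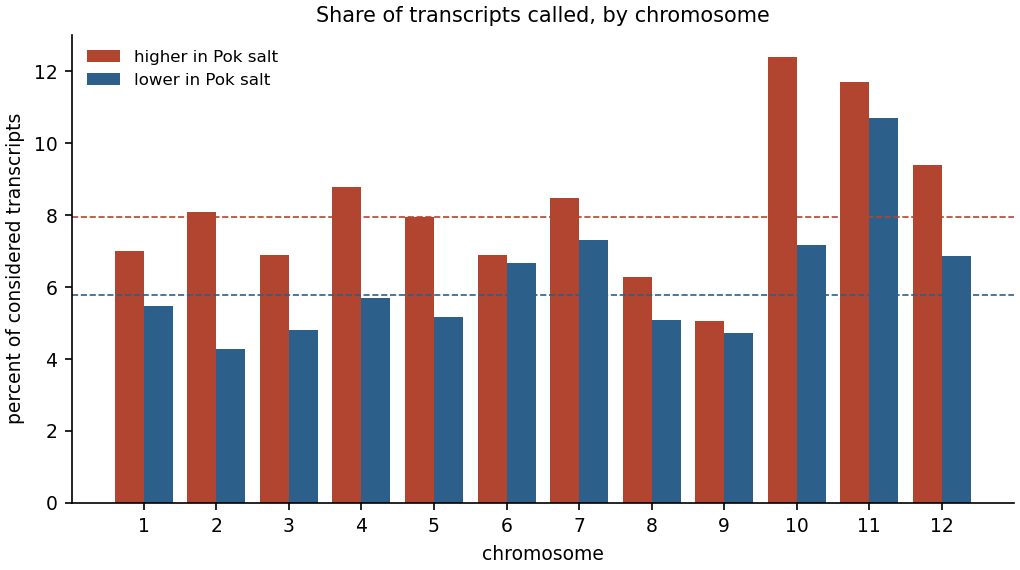
Percent of the members on each chromosome (horizontal) that were higher (red) or lower (blue) in Pok salt; dashed lines are the shares over all members, 7.95% and 5.79%. Chromosome 10 has the tallest red bar, 12.4%, and chromosome 11 the tallest blue bar, 10.7%.

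A part of the calls rested on a value listed at 0, which can be a failed estimate as well as an absent transcript, so no fold is given against it. Of the higher transcripts, 107 were listed at 0 in IR29 salt, and of the lower ones 150 were listed at 0 in Pok salt. Without them, 821 were higher and 526 lower. Of the 107, 26 lay in 1 assembled locus, chr2:35067502-35345585, where all 26 were also at 0 in IR29 control and none was at 0 in Pok. It holds genes of unrelated kinds, such as a CBS domain membrane protein (Os02g57280.1, listed at 0 in both IR29 libraries, 118 FPKM in Pok control and 120.2 after salt) and ribosomal protein L28-1 (Os02g57540.1, 63.1 and 44.8 FPKM in Pok) and ribosomal protein L9 (Os02g57670.1, 80.2 and 42.4 FPKM in Pok). A second such locus, chr5:915585-1002819, held 7, among them glycine-rich protein A3 (Os05g02780.2). An antenna protein, Os08g33820.1, was listed at 0 in both IR29 libraries and had 769 FPKM in Pok control and 693 after salt. On the IR29 side, an initiation factor (Os06g23440.1) had 80.5 FPKM in IR29 control and 169 in IR29 salt, and ferredoxin-NADP reductase (Os06g01850.1), which makes NADPH in photosynthesis, had 109 and 65.1, both at 0 in both Pok libraries. The peptide hormone RALFL28 (Os06g29730.2), with 79.3 and 52.9 FPKM in IR29, and chlorophyllide a oxygenase (Os10g41780.1), which makes chlorophyll b, with 40.9 and 40.8 FPKM, were also at 0 in both Pok libraries. Inositol-3-phosphate synthase (Os03g09250.1) had 29.1 FPKM in IR29 control and 43.6 after salt, against 30.6 in Pok control and 0 after salt, so only Pok salt was listed at 0. In all, 48 transcripts were at 0 in both IR29 libraries with 5 FPKM or more in both Pok libraries, and 37 the reverse. Another assembled transcript of the same gene reached 5 FPKM in the library at 0 for 37 of the 107 and 45 of the 150.

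Some calls were differences between isoforms. At 50 loci, 1 transcript was higher and another lower in Pok salt, and at 48 of these the summed FPKM of the locus differed by less than the limit. Carbonic anhydrase (Os01g45274), which supplies CO2 chemistry in the chloroplast, had isoform Os01g45274.3 with 15.1 FPKM in IR29 control and 0.294 after salt, against 56.2 in Pok control and 46.7 after salt (5.2) and isoform Os01g45274.2 with 19 FPKM in IR29 control and 26.4 after salt, against 6.53 in Pok control and 2.23 after salt (-3.08). Its summed level was 97.8 FPKM in IR29 salt and 253 in Pok salt (1.36), past the limit, so this locus was not among the 48. Isoform Os01g45274.1 was also higher, with 38.9 FPKM in IR29 salt and 142 in Pok salt (1.85), and Os01g45274.4 was not called (0.92). The HEAT repeat protein Os09g07510.1 had 23.9 FPKM in IR29 salt and 0.503 in Pok salt, against 9.13 and 3.34 in the respective controls (-4.05), while its locus summed to 46.9 FPKM in IR29 salt and 43.6 in Pok salt. Isoform shares are estimates from short reads, and their error was not given.

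The control pair shares no library with the salt pair and was set beside it to see which differences also stood without salt. There, 890 of 10625 transcripts were higher in Pok (8.38%) and 609 lower (5.73%), with a median of 0.32. Of the 928 transcripts higher under salt, 211 were also higher in the control pair, which is 22.7% of the former and 23.7% of the latter; 61 were lower there, 370 were neither and 286 did not reach 5 FPKM. Of the 676 lower under salt, 176 were also lower in the control pair, which is 26% of the former and 28.9% of the latter; 29 were higher there, 175 were neither and 296 did not reach 5 FPKM. Among the 7424 transcripts that reached 5 FPKM in each of the 4 libraries, the ratios of the 2 pairs had a correlation of 0.32, given as a description across genes, which are not independent replicates. The dehydrins, LEA proteins and nicotianamine synthases named above as higher were called in the salt pair and not in the control pair, where most did not reach 5 FPKM, the thionins named above and Os11g46860.1 were lower in Pok in both, and several root-expressed genes, lipid transfer proteins and the metallothionein Os12g38300.1 were called in opposite directions.

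**Figure D5:**
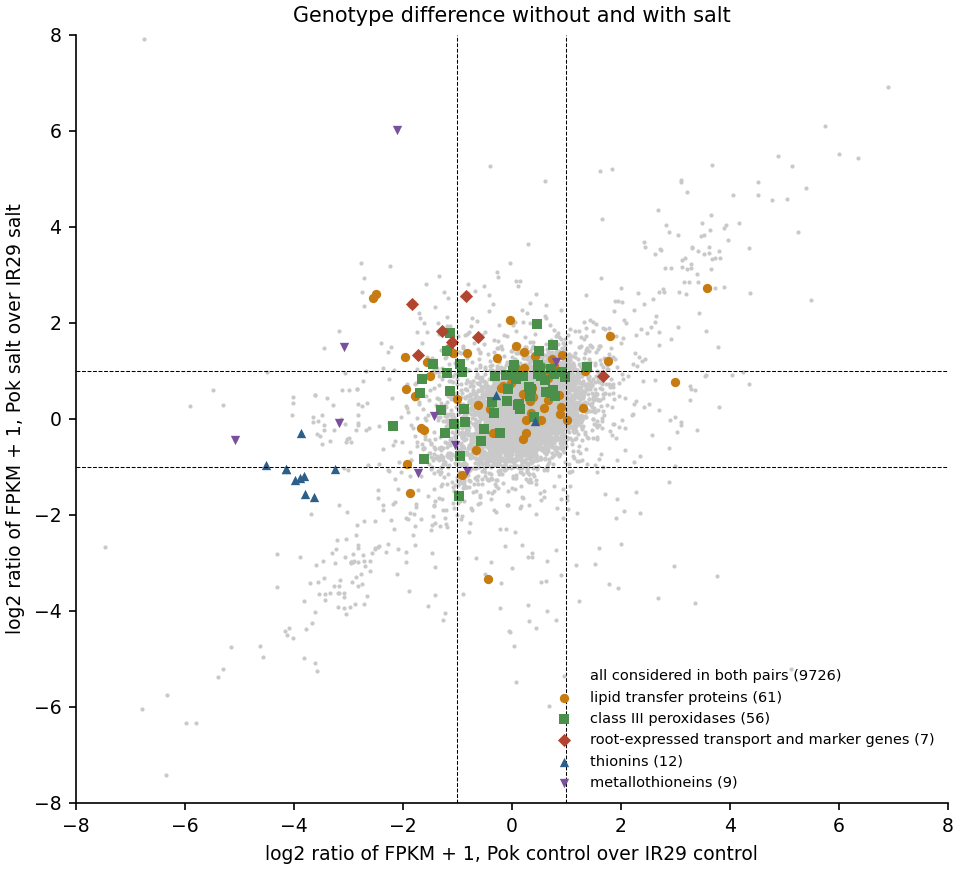
Log2 ratio of FPKM + 1 of Pok over IR29 in the control pair (horizontal) and in the salt pair (vertical) for the 9726 transcripts considered in both, 1 point each; coloured markers are members of 5 gene lists and dashed lines mark ratios of 1 in size. Axes run to 8 in each direction and 2 points lie outside. Most thionins lie to the left and below 0, and the metallothionein at 6.01 lies high on the left side.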

How the data were processed

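Polysomal RNA of whole seedlings was sequenced in 4 libraries. Per the methods, the authors aligned 50- to 51-nt reads to the MSU v6.1 rice genome with TopHat, assembled and merged transcripts with Cufflinks and Cuffmerge, classed them with Cuffcompare and estimated FPKM with Cuffdiff; tool versions are not given in the sources used here. The deposited table holds FPKM per assembled transcript. FPKM are not counts, so the counting error of each transcript is unknown, and no count model was used. The paper lists the reads of each library, which were not used here. The 5 assembled transcripts with the highest FPKM held 41.4% of the summed FPKM in IR29 control and 65.1% in IR29 salt. They held 64.6% in Pok control and 58.5% in Pok salt. The part of this in the ratios was not tested. Transcripts matching an annotated one (class code =) were kept. Ratios were taken as log2(FPKM + 1) with a pseudocount of 1, a minimum of 5 FPKM in either library and a size limit of 1, with Python 3.11.15 and pandas 2.3.3. The study's limits were on the size of its log2 fold change and on level, the same in value, with an FDR and an OK status from Cuffdiff that were not used here; the pseudocount was added here. The calls were tested on simulated data. Assembled locus positions have 1 added to the start, and 21 members without a locus name keep their assembly name. The members and the 68 gene lists were chosen with earlier results of these data known; DUF260 proteins caught by the word DUF26 were removed after their values were seen. Named were the 10 largest ratios each way, the 5 highest levels against a listed 0 in each direction, up to 4 members of each list, members of lists given by locus and loci that the study names; a few others are marked in the text. Alternatives changed the minimum, the size limit, the pseudocount, the scaling, zeros and the unit summed. No sequence was used.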

Additional observations from a re-analysis of the deposited data

Results flagged for a closer look

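The genotype difference was called in opposite directions in the salt pair and the control pair for 61 transcripts with a specific annotation that were above 0 in all 4 libraries; 42 were higher and 19 lower in Pok salt. Over all calls, 61 of the 928 transcripts higher under salt were lower in the control pair (6.57%). Of the 676 lower ones, 29 were higher there (4.29%). Among all transcripts considered in the control pair, 5.73% were lower and 8.38% higher. These shares are not like for like. Of the 928, 286 did not reach 5 FPKM in the control pair and could not be called there, and of the 676, 296 did not. Over the transcripts that could be called, the shares are therefore larger than 6.57% and 4.29%. For the higher transcripts the share lies above the 5.73% of all. For the lower transcripts 29 were higher in the control pair, 176 lower and 175 neither, so their share stays below the 8.38% of all. The difference between the pairs was not tested, since each group is 1 library. The 8 with the widest gap and the others named by the rule make 25, of which 20 were higher and 5 lower under salt; each is given here by its log2 ratio under salt and then in control.

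Among metal-related genes, the metallothioneins Os12g38300.1 (6.01 and -2.11) and Os12g38051.1 (1.49 and -3.08) and the Nramp transporter Os02g03900.1 (1.81 and -1.73) were higher in Pok salt and lower in Pok control. Among genes known from roots and secreted wall proteins, the same held for LTPL121 (Os04g46820.1, 2.59 and -2.49), LTPL120 (Os04g46810.1, 2.51 and -2.55) and LTPL112 (Os02g44310.1, 2.39 and -1.83). It held for the aquaporin Os02g51110.1 (1.82 and -1.28), the ammonium transporter Os02g40730.1 (1.32 and -1.72) and the peroxidase Os04g34630.1 (1.79 and -1.14). The glycine-rich wall proteins of chromosome 10 were Os10g31690.1 (2.8 and -1.58), Os10g31530.1 (2.64 and -1.24) and Os10g31720.1 (2.53 and -1.17). The plastocyanin-like domain proteins, secreted copper proteins, were Os07g01440.1 (2.2 and -1.7), Os04g53710.1 (2.1 and -1.68), Os06g15600.1 (1.8 and -1.55) and Os11g24140.1 (1.59 and -1.65).

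The other 4 higher under salt were the bromelain-type protease Os01g24560.1 (2.32 and -1.41), the cytochrome P450 Os06g01250.1 (2.01 and -1.61), the zinc finger protein ZOS5-02 (Os05g02390.1, 1.09 and -1.49) and the helix-loop-helix protein Os02g52190.1 (1.05 and -1.29). The 5 lower in Pok salt and higher in Pok control were the chloride conductance regulator Os10g08879.2 (-3.03 and 1.53), the GLTP domain protein Os02g40890.2 (-2.61 and 2.01), the haloacid dehalogenase-like hydrolase Os10g32730.1 (-1.97 and 2.36), 12-oxophytodienoate reductase Os08g35740.2 (-1.96 and 1.2) and the DnaJ protein Os07g43870.2 (-1.4 and 1.07). For Os10g08879.2 and Os10g32730.1 another isoform of the locus was higher in Pok salt, and the locus sums under salt were 14.3 FPKM in IR29 and 13.3 in Pok (-0.094) for the former and 7.97 and 9.34 (0.20) for the latter. The root-expressed list summed to 126 FPKM in IR29 salt and 429 in Pok salt, but to 358 and 271 in the control libraries of IR29 and Pok; its part in these values was not tested.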

How the results depend on the processing

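With 1 FPKM library a group, no replicate could be left out and no error given. No paired analysis was possible because each group holds 1 library. Counts of 928 higher and 676 lower transcripts were 1751 and 1568 at a minimum of 1 FPKM, 599 and 369 at 10 FPKM, 253 and 273 at a 4-fold limit and 465 and 393 with a pseudocount of 5. Under the other settings (a 2-fold FPKM ratio, a pseudocount of 0.1, both scalings, zeros left out, sums per locus and, chosen after seeing the data, without the locus on chromosome 2) they stayed within 1.5 times. The share of calls that were higher, 57.9%, was 52.8% at 1 FPKM, 61.9% at 10 FPKM, 48.1% at 4-fold, 50.9% centred, 50% with upper-quartile scaling, 61% without zeros and 54.2% with a pseudocount of 5. The share of higher transcripts also higher in the control pair, 22.7%, was 29% with no minimum there, 19.9% with both pairs centred and 19.3% without zeros; for lower transcripts, 26% became 37.1% with no minimum and 30% centred. Of 68 list medians, 56 moved by no more than 0.25 under every setting run; universal stress proteins went from 0.12 to -0.093 at 1 FPKM. Of the named transcripts that were called, 229 of 238 stayed past the limit when centred. Their direction could not change under these settings. The same pseudocount was added to both libraries, and the scalings shifted ratios by much less than the size limit. Sizes did depend on the pseudocount: the ratios of 192 of 267 named transcripts moved by more than 0.25 with a pseudocount of 5, and of 120 with 0.1.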

Other observations

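Several transcripts without a specific annotation had some of the widest differences; their sequences were not examined, and they were chosen after their values were seen. Os01g57968.1 was listed at 0 in both IR29 libraries and had 16364 FPKM in Pok control and 14865 after salt. Os12g38720.1 had 179.6 FPKM in IR29 control and 169 after salt, against 2.25 in Pok control and 1.11 after salt, and Os07g26579.1 was at 106 FPKM in IR29 control and 239 in Pok salt and listed at 0 in the other 2 libraries. Annotations of this kind, with transposon proteins, made up 21.1% of the higher and 28.3% of the lower transcripts, against 18.1% of all members.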
